A study of Danio rerio with 7 samples.

Results

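The SoxB genes encode transcription factors with an HMG box and were examined here in the dissected zebrafish hindbrain at 24 hpf, in embryos homozygous for a mutation in fgf20a and in wild-type embryos. Members were chosen by name and comprise 9 genes, the 6 SoxB1 genes sox1a, sox1b, sox2, sox3, sox19a and sox19b and the 3 SoxB2 genes sox14, sox21a and sox21b, out of 32189 gene IDs in the count table. A single ID was found for 7 of them. The names table gives the symbol SOX1 to 2 IDs without the letter that tells sox1a from sox1b, so both names were dropped as single genes, and the values of both IDs are given under SOX1. The ID of sox21b carries the symbol SOX21 and was taken as sox21b because the only other copy, sox21a, has an ID of its own.

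The 3 Fgf20aHOM libraries came from Fgf20a HOM embryos, which the authors obtained by crossing homozygous fgf20a (dob) mutants with each other, and the 4 Cnt libraries from wt embryos of the LondonAB strain. Each library was made from the hindbrain of a single embryo raised at 28.5°C, and the labels name the tissue around the hindbrain as part of the dissection. No littermates were compared, so genotype and parental line cannot be told apart. The columns of the mutant libraries are numbered F2, F3 and F4 and are called by these names.

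SoxB1 proteins keep cells of the neural tube in a progenitor state and act mainly as activators, with POU factors as partners on DNA. Proneural factors have to overcome their activity before a cell can become a neuron. SoxB2 proteins bind the same DNA motif but act mainly as repressors, and work in the chick neural tube has shown Sox21 to promote neuronal differentiation. In zebrafish, sox19b is the SoxB1 gene whose transcript is loaded into the egg, and sox2, sox3, sox19a and sox19b act redundantly in the early neural plate. The hindbrain has zones where progenitors do not differentiate, and Fgf20 from neurons at segment centres maintains one kind of them. The comparison therefore asks whether genes of the progenitor state differ in embryos homozygous for the fgf20a mutation.

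The libraries held 52900433 to 55915518 counts in Fgf20aHOM and 59800936 to 69801072 in Cnt. Values below are normalised counts, which are counts divided by the scaled library size and set to the mean library. The names table gives FGF20 to 2 IDs and does not tell fgf20a from fgf20b. The groups overlapped for both IDs. ENSDARG00000007356 had 182 to 270.1 in Fgf20aHOM and 131 to 390.2 in Cnt (edgeR adjusted p = 0.893), and ENSDARG00000086070 had 269 to 546 in Fgf20aHOM and 207 to 909 in Cnt (edgeR adjusted p = 0.805). The labelled tissue was checked with egr2b, which marks the third and the fifth segment, and was at 2639 to 9215 in Fgf20aHOM and 2776 to 4013 in Cnt. The segment gene mafba was at 3252 to 6545 in Fgf20aHOM and 902 to 3761 in Cnt, so both defining genes were present in every library. Their levels varied between libraries, with overlapping groups, and whether the dissections held equal parts of each segment was not tested.

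Among the SoxB genes sox19b rose in Fgf20aHOM, and the other 6 members and both SOX1 IDs did not pass the test. In bulk samples fewer cells of a type and less RNA per cell cannot be told apart. Calls required an edgeR quasi-likelihood adjusted p no greater than 0.01, a difference of 2-fold or more and normalised counts over 30 throughout at least 1 group. These limits called 1 of the 9 SoxB IDs, and 86 (0.439%) of 19589 tested genes. DESeq2, with the same limits, also called sox19b alone among the 9, and 3.08% of the genes it tested. All 9 IDs had counts in every library and passed the filter on low counts. The fitted log2 fold change was above 0 for all 6 SoxB1 IDs and below 0 for 2 of 3 SoxB2 genes, with a median of 0.43 over the 9 IDs and of -0.048 over all tested genes. Values above 0 were thus found for 7 of 9 IDs, against 47.3% of all tested genes. In 3 of 9 IDs (sox2, sox19a and sox19b) every Fgf20aHOM library was above every Cnt library. Among all tested genes this was so for 9.46%. In 0 of 9 was every Fgf20aHOM library below every Cnt library, against 8.03% of all tested genes, and groups were apart in either direction for 17.5% of them. An adjusted p of at most 0.05 was reached by sox19b alone of the 9 and by 1.51% of tested genes. An unadjusted p under 0.05, higher in Fgf20aHOM, was found for sox2 and sox19b (8.44% of tested genes), and lower in Fgf20aHOM for 0 of 9 (7.21%).

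**Figure D1:**
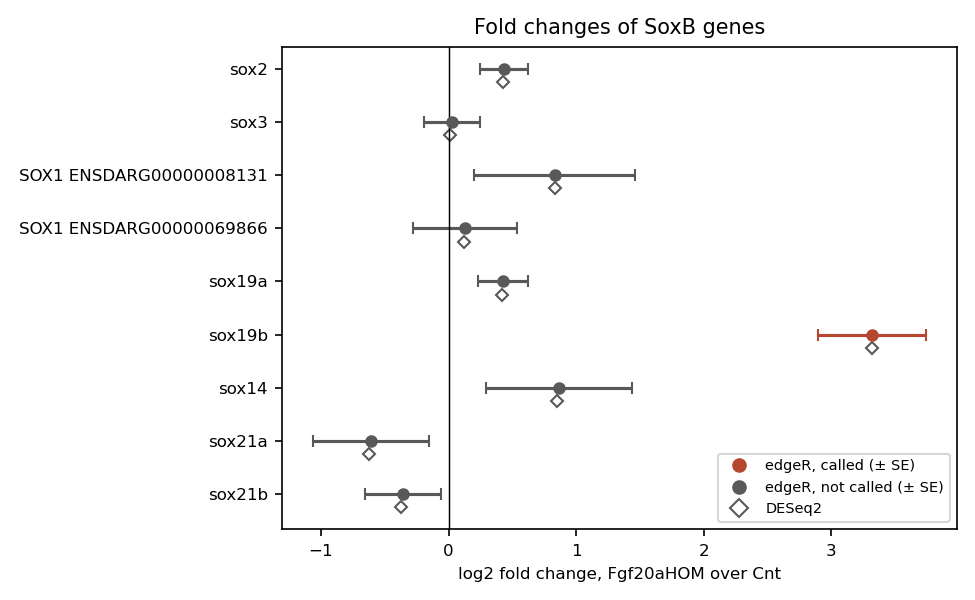
Log2 fold change of each SoxB ID, Fgf20aHOM (n = 3) over Cnt (n = 4), on the x axis. Circles with bars are edgeR estimates ± SE, open diamonds are DESeq2 estimates, and red marks the called gene. The estimate for sox19b is 3.32, and those of the other IDs lie between -0.61 and 0.86.

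sox19b (ENSDARG00000040266) had normalised counts of 5942, 5972 and 2502 in libraries F2, F3 and F4 of Fgf20aHOM, against 232, 532, 717 and 444 in Cnt 1 to 4. All mutant libraries were thus high and all wild-type libraries low, and the lowest mutant library was 3.49 times the highest wild-type one. Within the mutant group F4 was below F2 and F3. The means were 4806 ± 1995 in Fgf20aHOM and 482 ± 201 in Cnt (SD, n = 3 and 4). The fitted log2 fold change was 3.32 ± 0.43 (SE), a fold of 9.97, with an edgeR quasi-likelihood adjusted p of 0.00588 and a DESeq2 adjusted p of 1.1e-11. Among the 45 genes called higher in Fgf20aHOM (0.23% of those tested), sox19b was number 35 by fold change.

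The call of sox19b was close to the limit of 0.01. With 1 surrogate variable in the model, the log2 fold change was 3.20 and the edgeR adjusted p was 0.0216. When single libraries were left out, sox19b stayed called only without Fgf20aHOM F4 (adjusted p = 0.00794), and the adjusted p was 0.0111 without Cnt 1, 0.0181 without Cnt 2, 0.0129 without Cnt 3, 0.0241 without Cnt 4, 0.0240 without F2 and 0.0339 without F3, all by edgeR. The log2 fold change was between 3.09 and 3.63 in all 16 fits, and the adjusted p was at most 0.05 in all of them.

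**Figure D2:**
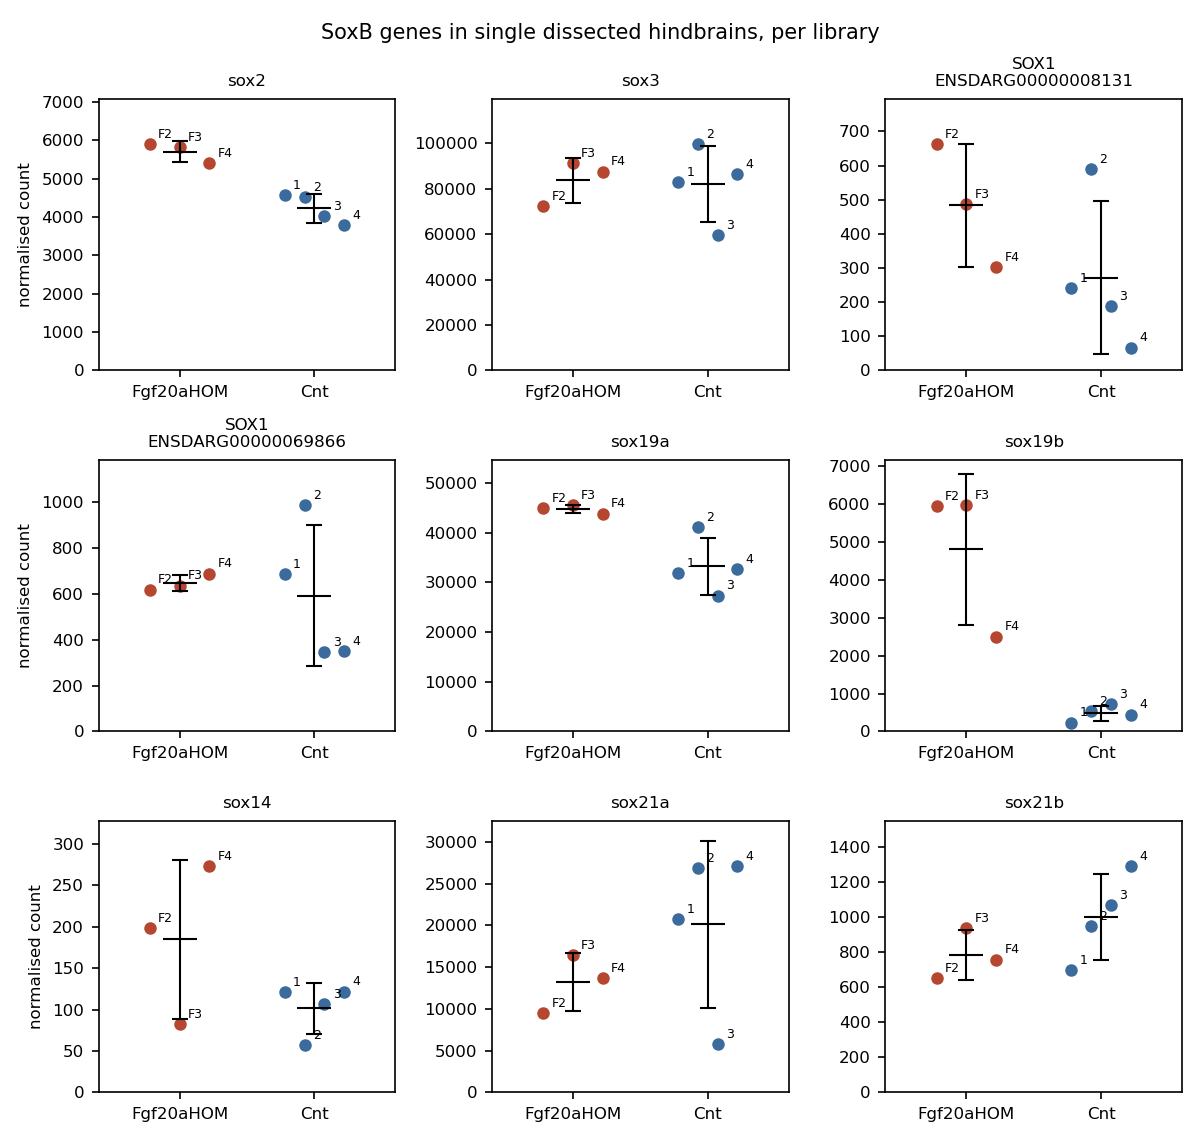
Normalised count of each SoxB ID (y axis, from 0) in the 3 Fgf20aHOM libraries F2 to F4 (red) and the 4 Cnt libraries 1 to 4 (blue). Points are libraries, and black bars are means ± SD. The groups are apart for sox2, sox19a and sox19b, and sox19b has 2502 to 5972 in Fgf20aHOM and 232 to 717 in Cnt.

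sox19a (ENSDARG00000010770) is the paralogue of sox19b and is transcribed in the embryo throughout the neural plate and neural tube. It had normalised counts of 45051, 45580 and 43896 in libraries F2, F3 and F4 of Fgf20aHOM, against 31911, 41125, 27340.1 and 32767 in Cnt 1 to 4. The mutant libraries lay close together and above all wild-type libraries, of which Cnt 2 was nearest. The log2 fold change of 0.43 ± 0.20 (SE) did not pass the test (edgeR adjusted p = 0.330, DESeq2 adjusted p = 0.284).

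The ratio of both paralogues within a library does not depend on its depth or scaling. sox19b made up 11.7%, 11.6% and 5.39% of the counts of both genes in libraries F2, F3 and F4 of Fgf20aHOM, against 0.723%, 1.28%, 2.56% and 1.34% in Cnt 1 to 4. The share was higher in every mutant library than in any wild-type library, and the wild-type library with the highest share was Cnt 3. The log2 ratio of sox19a to sox19b averaged 3.33 ± 0.70 in Fgf20aHOM and 6.21 ± 0.76 in Cnt (SD, n = 3 and 4), a difference of -2.88. The exact two-sided permutation p of 0.0571 is the smallest that 35 splits of 7 libraries can give (0.229 adjusted over the 4 ratios tested by Benjamini-Hochberg), so this design could not reach 0.05. Reads shared by the paralogues were divided between them when counted, which makes each count less certain. The sum of both, most of which was sox19a, was 46397 to 51553 in Fgf20aHOM and 28058 to 41658 in Cnt. Neither member of the pair was lower in Fgf20aHOM, and the division of shared reads was not tested.

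**Figure D3:**
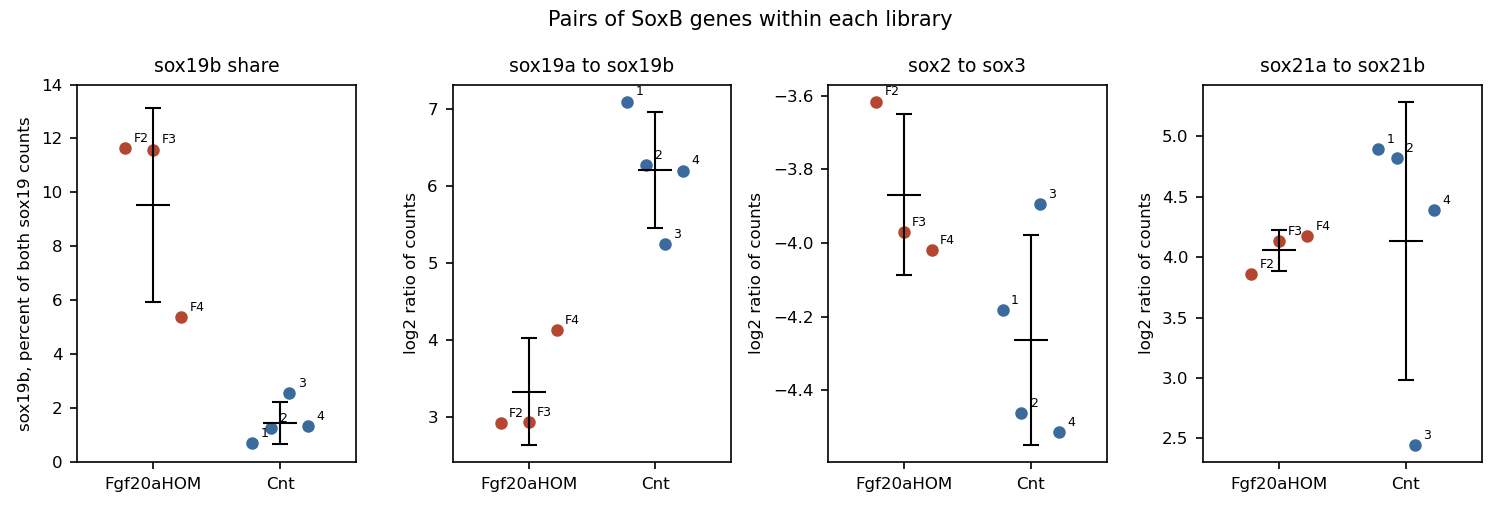
Pairs of SoxB genes compared within each library, Fgf20aHOM F2 to F4 in red and Cnt 1 to 4 in blue, with mean ± SD in black. The first panel gives sox19b as a percent of the counts of sox19a and sox19b, and the others give log2 ratios of counts. The groups are apart for the sox19 pair only, with a share of 5.39% to 11.7% in Fgf20aHOM and 0.723% to 2.56% in Cnt.

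The sox19 genes lie in duplicated neighbourhoods, each with an mpdu1, an eif4a1 and a senp3 gene beside it, which allows the genes next to sox19b to be compared with their copies next to sox19a. This comparison was chosen after the values had been seen, and gene order was taken from a newer RefSeq assembly (GRCz12tu). Among the 8 protein-coding genes on each side of sox19b, 11 could be matched and tested. Of these 0 were called by edgeR (0.439% of all tested genes) and 1 had an unadjusted p under 0.05 (15.6% of all tested genes), counts too small to set the neighbours apart from other genes. That gene was her8a, which encodes a Hairy-related repressor. It averaged 12768 ± 4145 in Fgf20aHOM and 6367 ± 995 in Cnt (SD, n = 3 and 4), and its log2 fold change of 1.00 ± 0.26 (SE) did not pass the test (edgeR adjusted p = 0.103). Log2 fold changes of the 11 neighbours ran from -0.34 to 1.00. The genes directly beside sox19b did not pass the test. They were mpdu1b, a factor of glycan synthesis, at -0.13 ± 0.33 (adjusted p = 0.883), and eif4a1a, an RNA helicase of translation initiation, at 0.60 ± 0.30 (adjusted p = 0.357), both SE and by edgeR. Next to sox19a, 8 genes were tested, with 0 called by edgeR (against 0.439%) and 1 at an unadjusted p under 0.05 (against 15.6%), and log2 fold changes ran from -0.73 to 0.42. The gene at an unadjusted p under 0.05 was mrps31, of the mitochondrial ribosome, at -0.57 (edgeR adjusted p = 0.271). Of the copies, mpdu1a was at -0.73 ± 0.37 (adjusted p = 0.384) and eif4a1b at -0.40 ± 0.20 (0.357), both SE and by edgeR. The senp3 genes were at -0.17 ± 0.22 beside sox19a and -0.11 ± 0.22 beside sox19b (SE, edgeR adjusted p = 0.755 and 0.859). Groups were apart for eif4a1b and mrps31, both lower in Fgf20aHOM (8.03% of all tested genes), and for her8a, higher in Fgf20aHOM (9.46%).

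**Figure D4:**
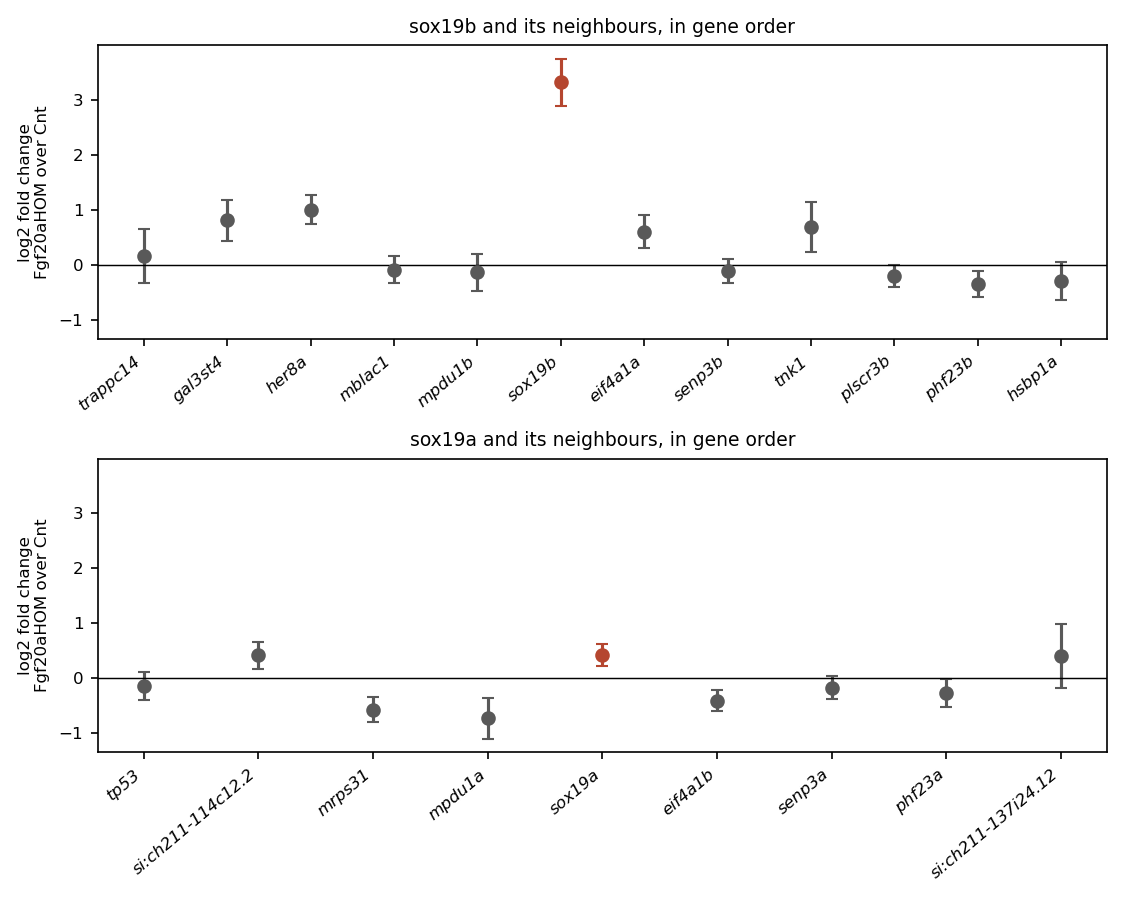
Log2 fold change (Fgf20aHOM over Cnt, edgeR estimate ± SE, y axis) of sox19b and sox19a, in red, and of the tested genes among 8 on each side, in grey and in gene order from left to right. sox19b stands at 3.32, its tested neighbours between -0.34 and 1.00, and those of sox19a between -0.73 and 0.42.

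sox2 (ENSDARG00000070913), which encodes the SoxB1 factor of neural stem cells, had normalised counts of 5897, 5822 and 5399 in libraries F2, F3 and F4 of Fgf20aHOM, against 4565, 4520, 4015 and 3786 in Cnt 1 to 4. The groups did not overlap, and the means of 5706 ± 269 in Fgf20aHOM and 4222 ± 383 in Cnt (SD, n = 3 and 4) differed by a fitted log2 of 0.43 ± 0.19 (SE). This did not pass the test, with an unadjusted p of 0.0429 and an edgeR adjusted p of 0.299 (DESeq2 adjusted p = 0.188). An unadjusted p under 0.05 was found for 15.6% of all tested genes.

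sox3 (ENSDARG00000053569) marks hindbrain progenitors and is lost as cells differentiate. It had normalised counts of 72312, 91225 and 87509 in libraries F2, F3 and F4 of Fgf20aHOM, against 82813, 99631, 59718 and 86534 in Cnt 1 to 4. The mutant libraries lay within the range of the wild-type libraries, which had their lowest value in Cnt 3 and their highest in Cnt 2. The log2 fold change was 0.03 ± 0.22 (SE, edgeR adjusted p = 0.970), and 1 SE around it runs from -0.19 to 0.25. The sign changed when Cnt 3, F3 or F4 was left out. The log2 ratio of sox2 to sox3 averaged -3.87 ± 0.22 in Fgf20aHOM and -4.26 ± 0.29 in Cnt (SD, n = 3 and 4), and the groups overlapped (difference 0.39, exact two-sided permutation p = 0.171, 0.229 adjusted over the 4 ratios).

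Both SOX1 IDs were low in some wild-type libraries. In zebrafish, sox1a and sox1b are expressed in the lens, in the neural tube and in interneurons of the V2b class. ENSDARG00000008131 had normalised counts of 663, 487 and 302 in libraries F2, F3 and F4 of Fgf20aHOM, against 241, 591, 188 and 67.1 in Cnt 1 to 4. Its wild-type values spanned 8.80-fold, the widest range of any SoxB ID in Cnt, and the groups overlapped. The log2 fold change of 0.83 ± 0.63 (SE) did not pass the test (edgeR adjusted p = 0.563). The value depended on single libraries, with 1.54 without Cnt 2, 0.55 without Cnt 4 and 0.54 without F2, and it was 0.44 with 1 surrogate variable. ENSDARG00000069866 had 619, 636 and 689 in libraries F2, F3 and F4 of Fgf20aHOM, against 687, 987, 347 and 350.1 in Cnt 1 to 4, and edgeR gave a log2 difference of 0.13 ± 0.41 (SE, adjusted p = 0.913). Its sign changed with 1 surrogate variable and without Cnt 3 or Cnt 4, and without Cnt 2 it was 0.49. The sum of both IDs, which does not depend on telling them apart, was 991 to 1282 in Fgf20aHOM and 417 to 1578 in Cnt. The groups overlapped, and Cnt 2 was highest. The log2 ratio of ENSDARG00000008131 to ENSDARG00000069866 averaged -0.49 ± 0.65 in Fgf20aHOM and -1.38 ± 0.74 in Cnt (SD, n = 3 and 4), also with overlap (difference 0.88, exact two-sided permutation p = 0.171, 0.229 adjusted over the 4 ratios).

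The SoxB2 gene sox21a (ENSDARG00000031664) marks ventral progenitors of the hindbrain at this stage. It had normalised counts of 9518, 16473 and 13702 in libraries F2, F3 and F4 of Fgf20aHOM, against 20789, 26872, 5818 and 27110 in Cnt 1 to 4. All mutant libraries were below Cnt 1, Cnt 2 and Cnt 4, but Cnt 3 was the lowest of all 7. The log2 fold change was -0.61 ± 0.46 (SE) with an edgeR adjusted p of 0.562, and it was -0.92 without Cnt 3 (adjusted p = 0.141). It was nearer to 0 in other fits, at -0.41 without Cnt 4, -0.42 without F2 and -0.44 without Cnt 2, and limma-voom gave -0.13 (adjusted p = 0.909). Cnt 3 was the lowest wild-type library for 4 of the 9 SoxB IDs, among them sox3, sox19a and sox21a.

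sox21b (ENSDARG00000008540) had 655 to 937 normalised counts in Fgf20aHOM and 699 to 1293 in Cnt. The groups overlapped, and the log2 fold change was -0.36 ± 0.30 (SE, edgeR adjusted p = 0.603). It was -0.17 without Cnt 4 and -0.13 with limma-voom. The log2 ratio of sox21a to sox21b averaged 4.06 ± 0.17 in Fgf20aHOM and 4.14 ± 1.15 in Cnt (SD, n = 3 and 4, exact two-sided permutation p = 0.914), and the wide spread in Cnt came from Cnt 3 with 2.44 against 4.39 to 4.89 in the other wild-type libraries.

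sox14 (ENSDARG00000070929) is expressed in small groups of neurons and had the fewest counts of the SoxB2 genes, with raw counts of 62 to 252. Its normalised counts were 198, 82.8 and 273 in libraries F2, F3 and F4 of Fgf20aHOM, against 121, 56.8, 107 and 122 in Cnt 1 to 4. F2 and F4 were above all wild-type libraries and F3 was below all but Cnt 2. The log2 fold change of 0.86 ± 0.57 (SE) did not pass the test (edgeR adjusted p = 0.504). It was 0.47 without F4, 1.25 without F3 and 0.42 with limma-voom.

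In the newer RefSeq annotation, sox2, sox3, sox19a and sox21b overlap long non-coding RNA genes, and sox1a, sox14 and sox21a overlap protein-coding genes. Whether counting used the strand was not stated, so reads of overlapping genes could not be told apart. No overlapping gene is listed for sox19b or sox1b.

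Other genes of neural progenitors, of neurons and of neighbouring tissues were examined in 16 lists. Of the 120 genes tested, 0 were called by edgeR and 0 by limma-voom, 27 (22.5%) had an unadjusted p under 0.05, against 15.6% of all tested genes, and DESeq2 called 5 (3.08% of the genes it tested). Those 5 were tal1, scube2, stm, foxd3 and tbxta, of which foxd3 and tbxta were named after their values had been seen. By edgeR tal1, scube2 and foxd3 were higher in Fgf20aHOM, and stm and tbxta were lower. The log2 fold change of foxd3 was 1.18 ± 0.28 (SE, edgeR adjusted p = 0.0848), and that of tbxta was -2.12 ± 0.60 (SE, edgeR adjusted p = 0.130). Among the POU factors, partners of SoxB1 proteins on DNA, 6 of 8 tested genes had a log2 fold change above 0 (47.3% of all tested genes). Low counts were found for pou5f3, pou4f1 and pou2f2a, named after their values had been seen. Of these pou5f3, at 0 in Cnt 2 and Cnt 4, was above 0 at 0.83 ± 1.69 (SE), and pou4f1 and pou2f2a were below 0. The median of the 8 was 0.42, and it was 0.13 without Cnt 3 and 0.12 with 1 surrogate variable. Of the 8, 2 had groups apart with higher values (9.46% of all tested genes) and 0 with lower values (8.03%). By edgeR, 2 had an unadjusted p under 0.05 with higher values (8.44%) and 0 with lower values (7.21%). For pou3f2b the values were 9036, 7214 and 6573 in libraries F2, F3 and F4 of Fgf20aHOM, against 4071, 5697, 4086 and 4153 in Cnt 1 to 4, and the log2 difference was 0.76 ± 0.22 (SE, edgeR adjusted p = 0.138). The groups did not overlap. The related pou3f3a, named after its values had been seen, was at 0.83 ± 0.25 (SE, edgeR adjusted p = 0.156), also without overlap. pou3f1 and pou3f3b had log2 fold changes of 0.28 and 0.18 with overlapping groups.

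The neural progenitor list had 15 tested entries, in which msi1 and msi1b are the same ID, counted under both names. By entries the median log2 fold change was 0.10, with 9 above 0, and its sign was not stable. It was -0.014 without Cnt 3, 0.037 without F3, 0.041 without Cnt 2, 0.20 without Cnt 1 and 0.24 without F2. Medians without the repeated ID were not computed. Groups were apart for 4 genes of the list (17.5% of all tested genes), 2 higher (9.46%) and 2 lower (8.03%) in Fgf20aHOM. An unadjusted p under 0.05 was found for 3 with higher values (8.44% of all tested genes) and 1 with lower values (7.21%). The 3 higher ones, named after their values had been seen, were notch3, cdh2 and zbtb16b. The Notch receptor gene notch3 was at 0.85 ± 0.21 (edgeR adjusted p = 0.0936), and the cadherin gene cdh2 at 0.80 ± 0.26 (0.186). zbtb16b was at 0.63 ± 0.21 (0.197), all SE, and the groups overlapped for cdh2. The lower one was id2a, at -0.53 ± 0.23 (SE, edgeR adjusted p = 0.308), with overlapping groups. Groups were apart for id3, lower in Fgf20aHOM at -0.43 ± 0.20 (SE, edgeR adjusted p = 0.347). Both id genes were also named after their values had been seen. The inhibitor of proneural proteins id1 had 36616 to 64840 in Fgf20aHOM and 65098 to 97019 in Cnt, which edgeR fitted as a log2 difference of -0.49 ± 0.25 (SE, adjusted p = 0.391), and the groups did not overlap. The log2 differences of the Notch target her4.2 and of zbtb16a, which holds back neurogenesis, were -0.09 and 0.36, with overlapping groups. The 21 tested proneural and early neuron genes had a median of 0.24, with 14 above 0 (47.3% of all tested genes). The median was 0.093 without Cnt 3, 0.15 without F4 and 0.37 without Cnt 1. An unadjusted p under 0.05 was found for 4 with higher values (8.44%) and 0 with lower values (7.21%). Groups were apart for 5 with higher values (9.46%) and 0 with lower values (8.03%). For the neuronal RNA-binding protein elavl3 the values were 25328 to 34585 in Fgf20aHOM and 15894 to 23851 in Cnt (log2 fold change 0.58 ± 0.21, SE, edgeR adjusted p = 0.231), and the tubulin gene tubb5 had 0.41 and the proneural gene ascl1b -0.15.

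V2 interneurons are a ventral class that in zebrafish also uses sox1a and sox1b. The summed normalised counts of 9 matched V2 genes were 4624 to 7119 in Fgf20aHOM and 2544 to 3290 in Cnt. The groups did not overlap, and 6 of 8 tested genes had a log2 fold change above 0 (47.3% of all tested genes). The median of the 8 was 0.90, and it was 0.62 without F2 and 1.32 without Cnt 1. Single genes were apart in both directions, 2 higher (9.46% of all tested genes) and 1 lower (8.03%) in Fgf20aHOM. By edgeR, 3 had an unadjusted p under 0.05 with higher values (8.44%) and 1 with lower values (7.21%). The gene tal1, a regulator of the V2b class, had values of 2287, 2743 and 786 in libraries F2, F3 and F4 of Fgf20aHOM, against 641, 474, 737 and 461 in Cnt 1 to 4. Its log2 fold change of 1.75 ± 0.40 (SE) did not pass the test by edgeR (adjusted p = 0.0748) and was called by DESeq2 (adjusted p = 0.00231). gata3 of the same class had a log2 fold change of 1.13 ± 0.48 (edgeR adjusted p = 0.287), and vsx1, which marks V2 precursors and the V2a class, had -0.72 ± 0.31 (both SE, edgeR adjusted p = 0.295). tal1 and gata3 also act in blood. The summed counts of 6 matched blood genes were 223 to 1668 in Fgf20aHOM and 320 to 2173 in Cnt. In Cnt 3, which had the highest sum, cahz alone had 2109. Of 4 tested blood genes, 3 had a log2 fold change above 0, and cahz was at -2.11 ± 0.84 (SE, edgeR adjusted p = 0.265). The part of blood in the tal1 and gata3 values was not tested.

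The ventral transcription factor genes that the study names with sox21a are foxb1a, sp8a, dbx1a and dbx1b. None could be matched to a single ID, so they were not tested. The 4 genes of signalling modulators that it names for the same cells were tested, with a median of 0.30 (0.47 without Cnt 2). In 2 of them, scube2 and sulf2b, all Fgf20aHOM libraries were above all Cnt libraries, as in 9.46% of all tested genes. scube2, which encodes a factor for the spread of Shh, had 6253 to 7143 in Fgf20aHOM and 2101 to 4202 in Cnt, with a log2 fold change of 1.04 ± 0.25 (SE). It did not pass by edgeR (adjusted p = 0.0836) and was called by DESeq2 (adjusted p = 0.00642). The sulfatase gene sulf2b, named after its values had been seen, had 3037 to 6400 in Fgf20aHOM and 1592 to 2803 in Cnt, and edgeR gave 1.16 ± 0.30 on the log2 scale (SE, adjusted p = 0.1004). sfrp5 and cyp26b1 had log2 fold changes of -0.44 and -0.51, and both overlapped between groups.

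**Figure D5:**
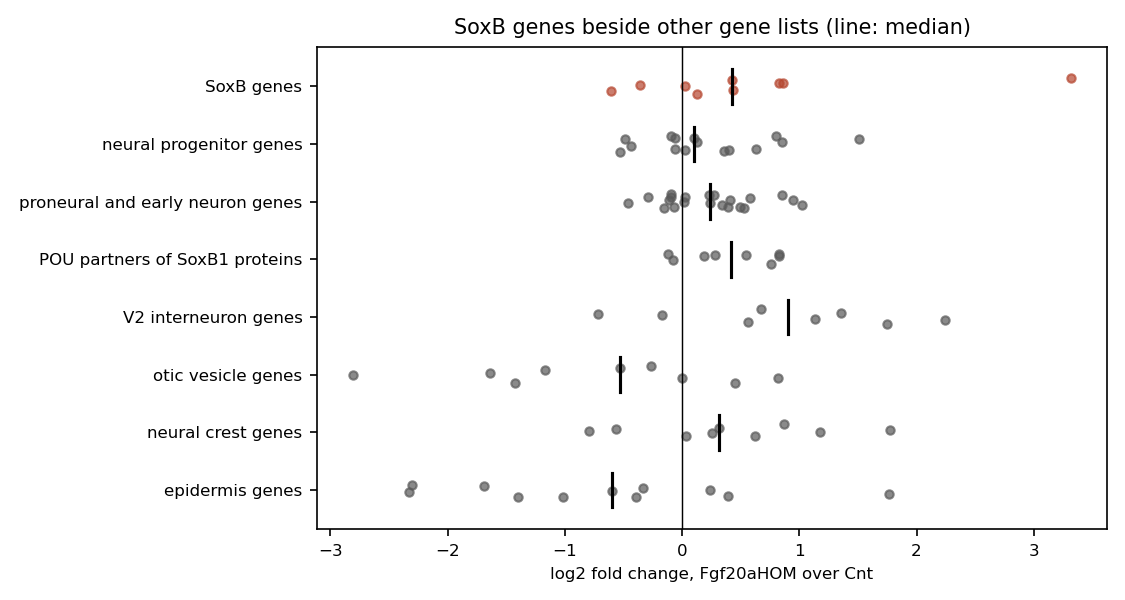
Log2 fold change (Fgf20aHOM over Cnt, edgeR, x axis) of the 9 SoxB IDs, in red, and of the tested genes of 7 other lists, in grey. Each point is a gene and each black line the median of its list. In the neural progenitor list the same ID is plotted and counted as both msi1 and msi1b. The medians are 0.43 for SoxB, 0.10 for neural progenitor, 0.24 for proneural and neuron, 0.42 for POU, 0.90 for V2, -0.53 for otic vesicle, 0.31 for neural crest and -0.59 for epidermis genes, the last of which is 0.25 with 1 surrogate variable.

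Tissue around the hindbrain can also express SoxB genes, in particular the otic vesicle, where sox2 and sox3 are active, and the lens. The summed normalised counts of 10 matched otic genes were 11645 to 14326 in Fgf20aHOM and 15731 to 45520 in Cnt, without overlap, and 4 of 9 tested genes had an unadjusted p under 0.05 with lower values in Fgf20aHOM, against 7.21% of all tested genes. Of the 9, 3 had a log2 fold change above 0. For the otolith gene stm, edgeR gave a log2 difference of -2.81 ± 0.81 (SE, adjusted p = 0.158). The otoconin gene oc90 was at -1.17 ± 0.44 (edgeR adjusted p = 0.233) and the placode gene eya1 at 0.45 ± 0.32 (0.544), both SE, and the groups overlapped for eya1. The highest otic sum was that of Cnt 3, in which stm alone had 20061. Among the wild-type libraries Cnt 3 had the lowest sox3, sox19a, sox21a and SOX1 ENSDARG00000069866, and the highest sox19b. Of the 8 matched lens and eye genes, cryaa, rx1 and rx2 had 0 counts in every library, and the sum was 270.0 to 573 in Fgf20aHOM and 153 to 568 in Cnt. The sum of 11 epidermis genes was 270885 to 697663 in Fgf20aHOM and 247799 to 1714670 in Cnt. The part of these tissues in the SoxB values was not tested.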

How the data were processed

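The authors amplified cDNA (NuGEN Ovation, Nextera XT), sequenced paired-end reads and quantified them with RSEM (1.2.31), which called the aligner STAR (2.5.1b), on GRCz10 with Ensembl transcripts. The deposited table holds estimated counts per gene from RSEM, which the authors rounded to whole numbers and did not scale. RSEM divides reads between similar genes. Wild-type columns matched sample titles, and mutant columns matched the group only. Symbols came from a names table (81.9% of 32189 IDs). A symbol without its copy letter was resolved only where 1 ID and 1 RefSeq copy were left.

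Genotype was tested with edgeR version 4.0.16 (quasi-likelihood, TMM, robust, filterByExpr) in R 4.3.3, two-sided and adjusted by Benjamini-Hochberg over 19589 genes, and the code was tested on simulated data. SE was derived from the F statistic. Ratios used a pseudocount of 0.5 and exact permutation tests in which the smaller tail was doubled. DESeq2 version 1.42.0, limma version 3.58.1 and sva version 3.50.0 were used for alternatives. Each sample was 1 embryo. Members and 16 gene lists (192 entries, 139 matched) were chosen with earlier results of these data known. Beside the members, genes of a list were named if called, if the adjusted p was at most 0.05, or if among its 3 most abundant. The planned order of levels between members was left out for want of coding lengths. The unit was planned as counts, and the same count tests were used.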

Additional observations from a re-analysis of the deposited data

How the results depend on the processing

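No paired analysis was possible because no littermates were compared, and no replicate block could be built. Mutant columns are numbered 2 to 4 and mutant titles 1 to 3. The order of levels per coding length was also not run. The neighbours of members were added after the data had been seen. The 86 called genes (45 higher, 41 lower) became 634 (258 and 376) with DESeq2, 132 (96 lower) with limma-voom, 42 (19 and 23) with 1 surrogate variable, and 15 to 69 without single libraries (9 to 30 higher, 6 to 41 lower). Lower calls were 27 with total counts only, 64 with no filter and 68 with a minimum of 1 CPM in 3 libraries. sox19b was called in 8 of 9 fits with all libraries (log2 fold change 3.20 with 1 surrogate variable, not called) and in 1 of 7 that left out a library (3.09 to 3.63). For sox3, leaving out libraries gave -0.10 to 0.13. For the SOX1 ID ENSDARG00000069866, the log2 fold change was -0.089 with 1 surrogate variable and -0.060 to 0.49 without single libraries. The difference in the sox21a to sox21b ratio was between -0.65 and 0.17 without single libraries. The epidermis median changed sign with 1 surrogate variable (0.25). List medians that moved by more than 1 SD were 0.12 for POU partners, with 1 surrogate variable, -1.04 for otic genes, with limma-voom, and 0.62 (CPM filter) and 0.49 (surrogate variable) for neural crest genes. Leaving out libraries gave 0.13 to 0.55, -1.22 to -0.16 and 0.26 to 0.84 for these lists. The CPM filter leaves low-count genes out of a list, so its neural crest median was over fewer genes. List genes called were 0, and 5 with DESeq2. The causes were not tested. No other SoxB ID was called in any fit. sox14 had as few as 62 counts in a library, and the part of counting error in its spread was not tested.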

Other observations

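Lists of other tissues gave further values from the same fit. Among 9 tested neural crest genes, 7 had a log2 fold change above 0 (47.3% of all tested genes). The median was 0.31, and it was 0.84 without Cnt 1, 0.58 without Cnt 2 and 0.55 without Cnt 3. The summed normalised counts were 11052 to 13395 in Fgf20aHOM and 4970.1 to 13188 in Cnt. Of the 9, 3 had groups apart with higher values (9.46% of all tested genes) and 0 with lower values (8.03%). By edgeR, 3 had an unadjusted p under 0.05 with higher values (8.44%) and 0 with lower values (7.21%). The 7 tested genes of cranial ganglia and placodes had a median of 0.18, which was 0.044 without Cnt 4, 0.11 without F2, 0.41 without F3, 0.37 without F4 and 0.016 with 1 surrogate variable. The groups overlapped for phox2bb and prph, at 0.42 and -0.04. The placode gene foxi1 had 877 to 1507 in Fgf20aHOM and 330.4 to 756 in Cnt, a log2 fold change of 1.24 ± 0.35 (SE) that did not pass the test (edgeR adjusted p = 0.129). The 8 tested midbrain and forebrain genes had a median of -0.17 (0.020 without Cnt 1 and 0.1004 without Cnt 2), with sums of 1266 to 1884 in Fgf20aHOM and 967 to 2231 in Cnt. The median was -0.025 for 3 lens and eye genes, with either sign when single libraries were left out (-0.55 to 0.67). It was 1.37 for 5 muscle genes (0.56 without F2 and 2.08 without Cnt 3), 1.16 for 4 blood genes (0.097 without F3) and -0.91 for 4 notochord genes. Several of the muscle and blood genes were at 0 in some libraries, among them myhz2, myod1, alas2 and gata1a. Of the 5 muscle genes 4 were above 0 (47.3% of all tested genes). The muscle gene myf5, named after its values had been seen, was at -5.21 ± 1.59 (SE, edgeR adjusted p = 0.159). It had few counts, and all Fgf20aHOM libraries were below all Cnt libraries. Muscle sums were 656 to 2052 in Fgf20aHOM and 54.5 to 1347 in Cnt.

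Among the other Sox genes, 6 of the SoxD, SoxE and SoxF list were tested, with a median of 0.37 (0.24 without Cnt 1, 0.65 without Cnt 2 and 0.14 with 1 surrogate variable) and 5 above 0. sox5, sox13 and sox10 had log2 fold changes of 0.52, -0.04 and 0.31, all with overlapping groups (edgeR adjusted p = 0.622, 0.966 and 0.730). Of the SoxC genes, which act in differentiating neurons, only sox12 could be matched and tested, at 0.85 ± 0.78 (SE, edgeR adjusted p = 0.643), and at 0.13 without F4.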
